A study of Mus musculus with 12 samples.

Results

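Monocytes are short-lived phagocytes that form in the bone marrow and enter the blood. In the mouse a classical type is released through the chemokine receptor CCR2, and a patrolling type carries high CX3CR1. Monocytes also give rise to macrophages and, with M-CSF and RANKL, to osteoclasts, the cells that resorb bone. The 10 genes described here are commonly used as monocyte markers: Ccr2, F13a1, Fn1, Ms4a6c, Ms4a4c, Cx3cr1, Cd14, Ctss, Mpeg1 and Klf4. They were taken by symbol from the 55291 symbols of the count table, all 10 were present, and all 10 were among the 15674 genes that passed the filter on low counts.

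RNA-seq counts came from non-adherent cells of mouse bone marrow, labelled progenitors, after about 24 hours in alpha-MEM medium; the mice were about 8 weeks old. There were 4 groups of 3 libraries: control mice and mice labelled homozygous (STAT3Cstopfl/fl CD4Cre), each without treatment or with short-chain fatty acids (SCFAs, which gut bacteria make from fibre) in the drinking water. STAT3C is a STAT3 transcription factor made constitutively active, and the transgene is silent until Cre cuts out its stop cassette. Here Cre was driven by the CD4 promoter, which is active mainly in T cells and not chiefly in monocytes. The label of homozygous untreated 1 adds R26, the locus of the transgene, and those of the other 5 homozygous libraries do not; the alleles of the control mice are not described. The labels do not say that libraries came from separate mice, so p-values measure only the spread between these libraries.

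Total counts were 16954355 to 20748995 per library. The labels date untreated libraries to day 1 of month 3 and those with SCFA to day 30, so an effect of SCFA and one of date cannot be told apart below. Control untreated 2 stood apart from the other 11 libraries on the second principal component. CPM below are counts relative to the library total after TMM scaling. Without SCFA, Stat3 itself averaged 357 ± 81.9 CPM for control and 294 ± 27.3 for homozygous libraries (mean ± SD, n = 3). The log2 fold change was -0.28 (adjusted p = 0.221, edgeR's quasi-likelihood test, used throughout). Under SCFA the averages were 239 ± 13.85 and 363 ± 40.3 CPM, at 0.60 (adjusted p = 0.0157). This genotype difference exceeded the untreated one by 0.88 (adjusted p = 0.0111). With SCFA, Stat3 changed by -0.58 in control mice (adjusted p = 0.0192) and 0.31 in homozygous mice (adjusted p = 0.240). Counts per gene do not separate the allele's transcripts, so Stat3 does not check the genotype labels. The progenitor genes Kit and Cd34 had 44.5 to 76.9 and 46.4 to 92.4 CPM over the 12 libraries. For Cd34, homozygous untreated libraries had 72.8 to 92.4 CPM and those of the other groups 46.4 to 54.4 CPM. In the same 12 libraries 10 genes of late neutrophils summed to 36772 to 78516 CPM. In such bulk samples more cells of a type and more RNA per cell cannot be told apart.

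The table of RefSeq promoters (build GRCm38.p6, 250 bases before to 50 after a start site) held 8 of the 10 genes; Fn1 and Cd14 had no entry. Letters of 6 motifs were searched on both strands: GAAA, any 2 bases and GAAA again (interferon-stimulated response element, ISRE), TTCNNNGAA (STAT site), GAGGAAG (a PU.1-type site; PU.1 is the main transcription factor of myeloid cells), GGAA, any 2 bases and GAAA (a joint PU.1 and IRF site, which can overlap the ISRE letters), TTGCNNAA (C/EBP) and CCACACCC (KLF). The stretches of 100 bases before the start are printed for Ctss and F13a1, which hold a match, and for Ms4a4c and Ms4a6c, neighbours with the largest rises of the 10 between genotypes without SCFA, which hold none. For Ms4a4c and Ms4a6c the RefSeq start lies inside the GENCODE span given below, for Ms4a4c well inside it. Capitals mark the ISRE letters in Ctss and the PU.1-type letters in F13a1.
Ctss, chr3:95526686-95526785, plus strand: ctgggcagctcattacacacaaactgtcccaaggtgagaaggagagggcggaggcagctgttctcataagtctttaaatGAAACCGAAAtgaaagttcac
F13a1, chr13:37050245-37050344, minus strand: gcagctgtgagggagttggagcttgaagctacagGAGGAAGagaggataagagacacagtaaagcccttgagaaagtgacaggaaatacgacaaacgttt
Ms4a4c, chr19:11407561-11407660, plus strand: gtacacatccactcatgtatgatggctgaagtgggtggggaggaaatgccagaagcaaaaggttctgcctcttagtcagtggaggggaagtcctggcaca
Ms4a6c, chr19:11469268-11469367, plus strand: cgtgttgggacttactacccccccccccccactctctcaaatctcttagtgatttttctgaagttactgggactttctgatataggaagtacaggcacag
The ISRE letters were found in 1 of the 8 genes (Ctss, first base at position -21 from the start) against 3.43% of 32817 promoters of the same length. The PU.1-type letters were found in 2 of 8 genes (F13a1, and Ctss across the start site) against 13.6% of promoters. F13a1 has 2 promoters, with matches at positions -66 and 18 in the first and 15 in the second. Counts of the 8 are thus per gene and the shares per promoter. The STAT, joint, C/EBP and KLF letters were found in 0 of 8, against 8.29%, 2.72%, 10.8% and 3.56% of all promoters. A match describes these letters only.

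Among control untreated libraries the 10 genes covered a wide range of levels. Per kilobase of exon, Ctss, a lysosomal protease that trims the invariant chain of MHC class II, stood highest at 956 ± 313 CPM per kb (mean ± SD, n = 3). Ccr2 and F13a1 followed at 261 ± 53.1 and 209.9 ± 18.8 CPM per kb, and their libraries overlapped. Mpeg1, Ms4a6c and Ms4a4c formed the next step, at 112, 104 and 96.8 CPM per kb, with overlapping libraries. Cd14 followed at 21.1 to 34.4 and Fn1 at 13.4 to 23.1 CPM per kb over their libraries, which overlapped, and so did Cx3cr1 at 2.33 and Klf4 at 2.16 CPM per kb, the lowest pair. Together the 10 genes took 0.526% to 0.647% of all counts in control untreated, 0.852% to 0.893% in homozygous untreated, 0.707% to 0.757% in control SCFA and 0.882% to 1.01% in homozygous SCFA libraries. Most of this share came from Ccr2, F13a1 and Ctss, with means of 1768, 1415 and 1299 CPM of a summed 5624 CPM in control untreated.

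**Figure D1:**
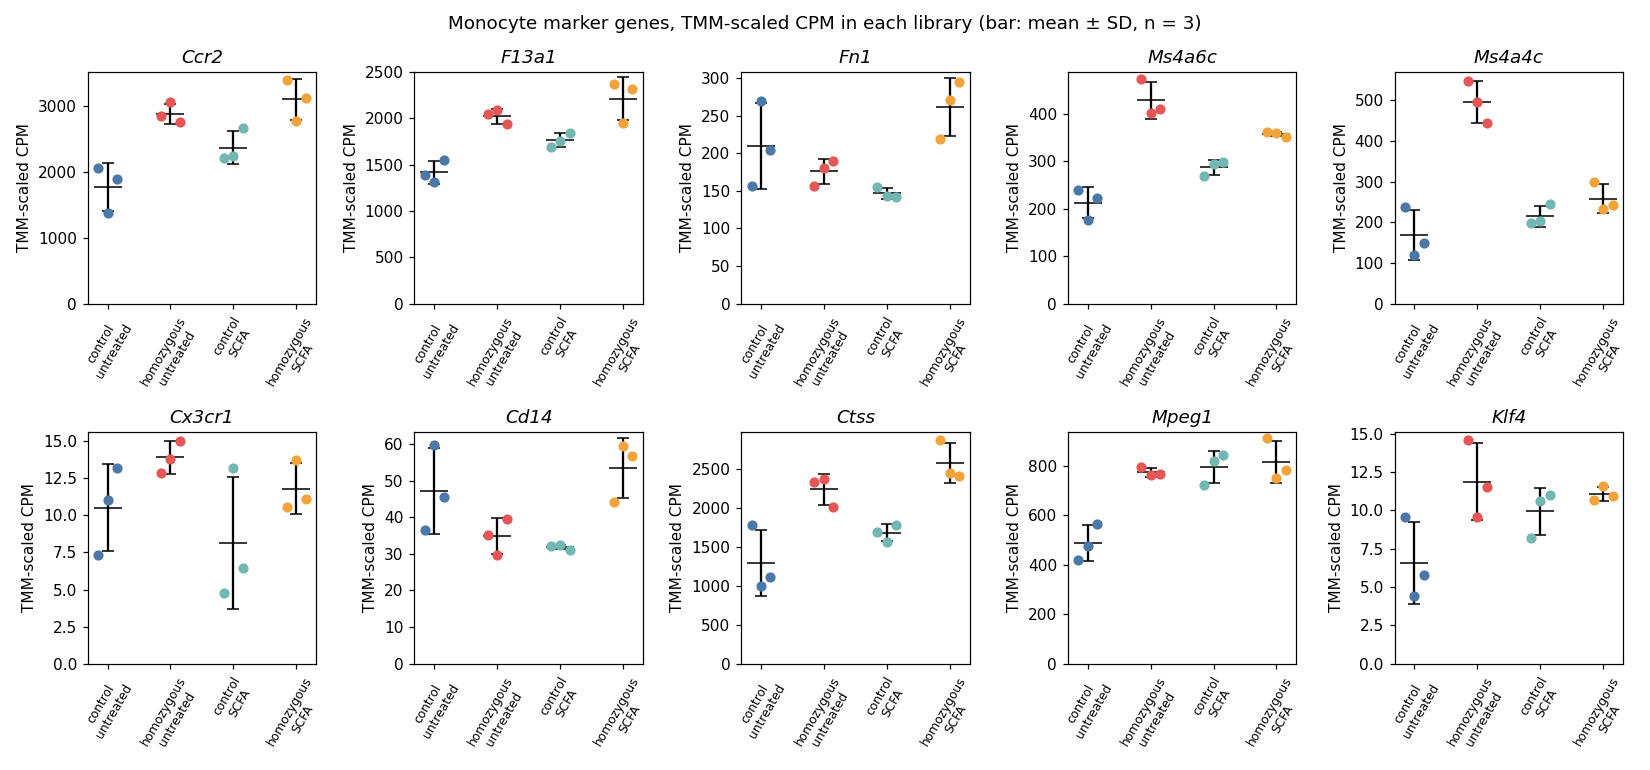
TMM-scaled CPM of each of the 10 genes (linear axes from 0) in the 12 libraries of the 4 groups, with a bar at the mean and whiskers of 1 SD (n = 3). Ms4a4c is highest in the 3 homozygous untreated libraries (443 to 548 CPM), and Fn1 and Cd14 have their highest mean in homozygous SCFA libraries.

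Without SCFA, most of the monocyte markers were higher in homozygous than in control mice. Of the 10 genes, 7 rose and 0 fell, where 14.8% of all genes tested were called (6.69% rose and 8.13% fell). Calls here and below are at an adjusted p under 0.05 (Benjamini-Hochberg, edgeR's quasi-likelihood test). The median log2 fold change of the 10 genes was 0.69, against -0.04 over all genes tested. Ms4a4c, Ms4a6c, Ctss, Klf4, Ccr2, Mpeg1 and F13a1 rose, by 1.43-fold for F13a1 to 2.93-fold for Ms4a4c. Libraries of the 2 genotypes did not overlap for 6 of the 10 genes, against 32.3% of all genes tested.

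Ms4a4c encodes a membrane-spanning protein of the MS4A family. It had 239, 119.9 and 149.7 CPM in control untreated libraries 1, 2 and 3 and 548, 495 and 443 CPM in homozygous untreated libraries 1, 2 and 3. Every homozygous library lay well above every control library, and the log2 fold change was 1.55 ± 0.21 (SE, adjusted p = 3.2e-04). Ms4a6c, another member of the family, had 239, 176 and 222 CPM in the control and 473, 402 and 410.1 CPM in the homozygous libraries. Its groups did not overlap either, with 1.01 ± 0.13 on the log2 scale (SE, adjusted p = 1.6e-04). The pair lies on mm10 at chromosome 19, 11404770 to 11427246 and chromosome 19, 11469366 to 11482192, both on the plus strand and protein-coding, with 1 other protein-coding gene between them. The noncoding gene BE692007 lies on the opposite strand and shares 1088 of the 2050 exon bases of Ms4a6c, and the strand setting of the counting is not given in the sources used here, so reads of the pair cannot be told apart there. Opposite-strand genes over F13a1, Fn1, Ms4a4c and Cx3cr1 share at most 292 exon bases with them and had at most 34 counts where they do. BE692007 was at 0.56 (adjusted p = 0.0910) and did not pass.

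The receptor gene Ccr2, through which monocytes leave the marrow, had 2054, 1365 and 1884 CPM in control untreated and 2837, 3047 and 2749.5 CPM in homozygous untreated libraries. The lowest homozygous library exceeded the highest control library, and the log2 fold change was 0.70 ± 0.14 (SE, adjusted p = 0.00623). F13a1, the catalytic chain of coagulation factor XIII, had 1383, 1307 and 1554 CPM in control and 2043, 2092 and 1933 CPM in homozygous libraries, again without overlap, at 0.52 ± 0.11 (SE, adjusted p = 0.00708). Mpeg1 encodes perforin-2, a pore-forming protein that acts against engulfed bacteria. Its level was 421, 474 and 566 CPM in control and 794, 762 and 765 CPM in homozygous libraries, the latter within a narrow band, at 0.67 ± 0.12 (SE, adjusted p = 0.00386). The calls of Ms4a4c, Ms4a6c, Ccr2, F13a1 and Mpeg1 passed in each of the 12 fits that left out 1 library.

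Ctss had 1784, 993 and 1119.7 CPM in control and 2339, 2379 and 2014 CPM in homozygous untreated libraries. Control untreated 1 lay closest to the homozygous libraries without reaching them, and the log2 fold change was 0.79 ± 0.18 (SE, adjusted p = 0.0108). Klf4, a transcription factor needed for monocyte formation, was much lower, at 9.57, 4.40 and 5.82 CPM in control and 14.6, 9.55 and 11.5 CPM in homozygous libraries. Control untreated 1 overlapped the homozygous libraries here, and the log2 fold change was 0.85 ± 0.27 (SE, adjusted p = 0.0467). The call of Ctss was lost without control untreated 3 (adjusted p = 0.0549), homozygous untreated 1 (0.0521) or homozygous untreated 2 (0.0562). That of Klf4 was lost in 11 of the 12 fits without 1 library, all but the one without control untreated 1, with adjusted p up to 0.197. In a fit of the 6 untreated libraries alone neither passed (adjusted p = 0.0552 for Ctss and 0.118 for Klf4).

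Cd14, Fn1 and Cx3cr1 did not pass. Cd14 encodes the co-receptor that hands lipopolysaccharide to TLR4, and it had 36.5, 59.6 and 45.4 CPM in control and 35.2, 29.7 and 39.6 CPM in homozygous libraries. Fn1, the gene of the matrix protein fibronectin, had 156, 269 and 204 CPM in control and 157, 181 and 189.9 CPM in homozygous libraries. The homozygous libraries overlapped the controls for both genes, and the log2 fold changes were -0.44 ± 0.18 (SE, adjusted p = 0.115) and -0.26 ± 0.17 (SE, adjusted p = 0.326). Without control untreated 1 both were called lower in homozygous mice, at -0.61 (adjusted p = 0.0197) for Cd14 and -0.45 (adjusted p = 0.0355) for Fn1. Without control untreated 2 they were -0.26 (adjusted p = 0.415) and -0.07 (adjusted p = 0.846). Cx3cr1, the fractalkine receptor of patrolling monocytes, had 7.35 to 13.2 CPM in control and 12.8 to 15.03 CPM in homozygous libraries, at 0.40 ± 0.31 (SE, adjusted p = 0.403). Its deposited count was exactly 269 in 4 of the 12 libraries, control untreated 3, homozygous untreated 2, control SCFA 2 and homozygous SCFA 2, so its values rest on a row with an unusual repeat whose cause was not tested.

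Other genes of classical monocytes, from a list that does not contain the 10, gave 9 rose and 0 fell of 14 at a median of 0.60. Ly6c2, the surface antigen that defines classical monocytes, rose by 1.11 (adjusted p = 4.6e-05) on the log2 scale, and Gpr141, which encodes a G protein-coupled receptor, by 1.20 (adjusted p = 2.3e-04). Ly6c2 has a close paralog with which reads may be shared. In the Ms4a cluster 6 rose and 2 fell of 10: Ms4a6b and Ms4a3 were among the rises, with Ms4a6b at 1.29 (adjusted p = 3.9e-04), and the B cell gene Ms4a1 (CD20) fell by 1.25 (adjusted p = 4.3e-04). Of the transcription factors of monocytes 0 rose and 6 fell of 12, at a median of -0.49. Egr1 and Egr2 were at -1.03 (adjusted p = 5.4e-05) and -1.85 (adjusted p = 4.8e-04). Genes of non-classical monocytes gave 1 rose and 3 fell of 12.

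Some marker lists of other cells also differed between the genotypes without SCFA. Here and below a sum mostly follows the most abundant genes of its list, so it does not show a shift of the whole list. Late neutrophil genes summed to 36772 to 55849 CPM in control untreated and 58548 to 78516 CPM in homozygous untreated libraries, and 4 rose and 1 fell of 10. Interferon response genes summed to 994 to 1029 and 2443 to 2621 CPM in the same order, and 8 rose and 0 fell of 10. B lineage genes summed to 2333 to 2794 and 833 to 897 CPM, and 0 rose and 8 fell of 8. Eosinophil, basophil and mast cell genes gave 4 rose and 0 fell of 6 at a median of 0.82, although their sums of 1556 to 1892 and 1544 to 1851 CPM overlapped. Plasmacytoid dendritic cell genes summed to 536 to 567 and 289 to 324 CPM (0 rose and 2 fell of 6), and erythroid genes to 7629.7 to 7923 and 4261 to 4818 CPM (2 rose and 2 fell of 7). Macrophage genes gave 2 rose and 3 fell of 8 and conventional dendritic cell genes 0 rose and 1 fell of 7. Neutrophil precursor genes gave 1 rose and 0 fell of 5, and megakaryocyte genes 1 rose and 1 fell of 5. T and NK cell genes gave 0 rose and 0 fell of 7, where 14.8% of all genes tested were called. Stromal genes, at low levels, gave 0 rose and 1 fell of 4. No gene of these lists was at 0 in all libraries, and their part in the rise of the monocyte markers was not tested.

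**Figure D2:**
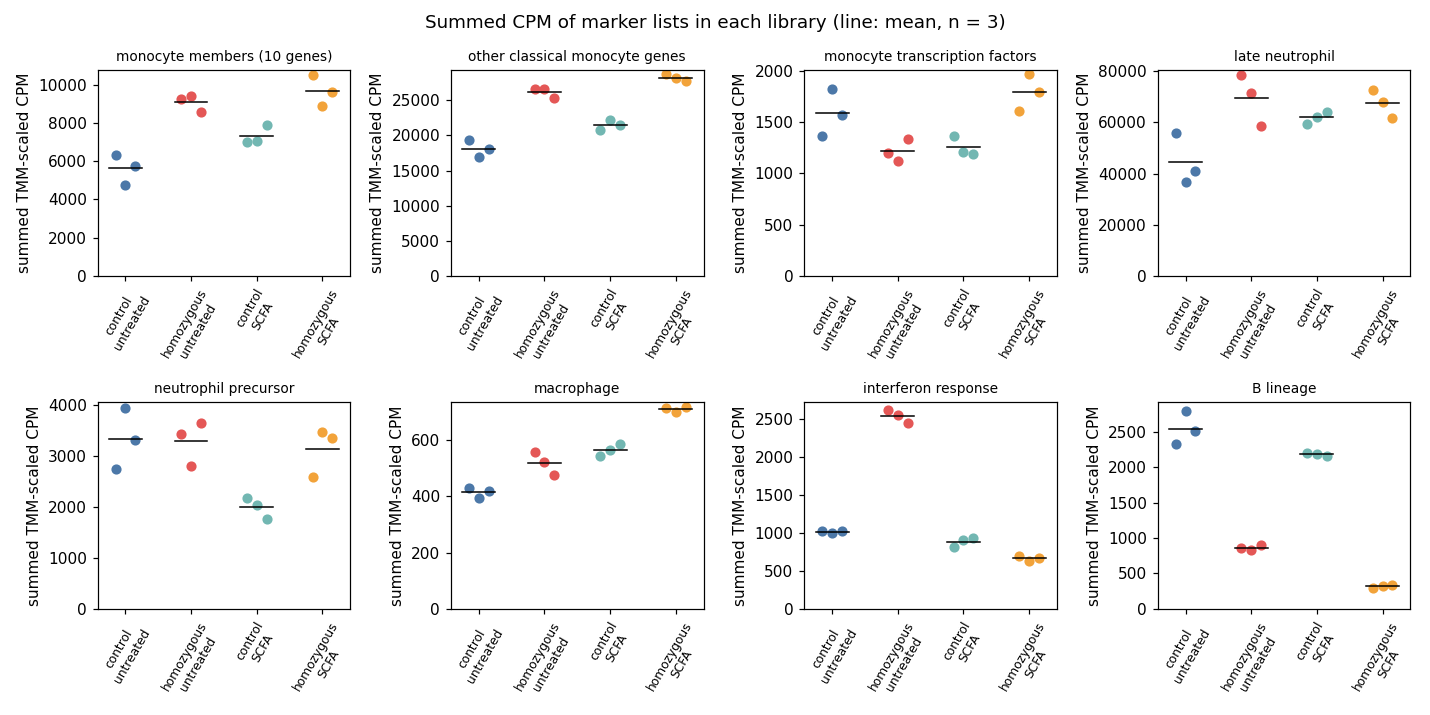
Summed TMM-scaled CPM (linear axes from 0) of the 10 monocyte genes and of 7 other gene lists in each of the 12 libraries, with a line at the group mean (n = 3). The monocyte sum, most of it from Ccr2, F13a1 and Ctss, is higher in both homozygous groups. The interferon sum is highest in homozygous untreated libraries (2443 to 2621 CPM).

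Under SCFA, 4 of the 10 genes rose in homozygous against control mice and 0 fell. Of all genes tested 17.4% were called (8.89% rose and 8.47% fell), and the median of the 10 was 0.36 against -0.02 over all genes tested. Fn1, Cd14, Ctss and F13a1 rose, and 5 of those called without SCFA (Ccr2, Ms4a6c, Ms4a4c, Mpeg1 and Klf4) did not pass. Groups did not overlap for 6 of the 10 genes, against 39.5% of all genes tested.

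Fn1 had 155, 143 and 142 CPM in control SCFA libraries 1, 2 and 3 and 219.7, 271 and 295 CPM in homozygous SCFA libraries 1, 2 and 3. The controls lay close together, and every homozygous library stood above them at 1.79-fold, which is 0.84 ± 0.17 on the log2 scale (SE, adjusted p = 0.00473). Cd14 showed the same arrangement, with 32.2, 32.3 and 31.2 CPM in control and 44.1, 59.4 and 56.8 CPM in homozygous libraries and 0.74 ± 0.18 on the log2 scale (SE, adjusted p = 0.0122). Both calls passed in each of the 12 fits without 1 library. Fn1 lies on chromosome 1, 71585520 to 71653200 and Cd14 on chromosome 18, 36725067 to 36726798 of mm10, both protein-coding and on the minus strand.

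Ctss had 1699, 1565 and 1789 CPM in control and 2876, 2451 and 2408 CPM in homozygous SCFA libraries, without overlap, at 0.61 ± 0.17 (SE, adjusted p = 0.0260). F13a1 had 1688, 1759 and 1843 and 2368, 1946 and 2321 CPM, at 0.33 ± 0.11 (SE, adjusted p = 0.0469). Although both groups stood apart in F13a1, its call was lost in 7 of 12 fits, without any 1 of homozygous untreated 1 and 2, control SCFA 1, 2 and 3 and homozygous SCFA 1 and 3 (adjusted p up to 0.162), with RLE factors (0.0582), without the filter on low counts (0.122) and with scaling that leaves out B lineage genes (0.0525). The call of Ctss was lost without any 1 of the 6 SCFA libraries (adjusted p up to 0.113).

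Ccr2 had 2208, 2232 and 2655 CPM in control and 3395, 2766 and 3121 CPM in homozygous SCFA libraries. The groups did not overlap, yet the log2 fold change of 0.39 ± 0.14 (SE, adjusted p = 0.0728) did not pass. Ms4a6c had 269, 295 and 298 and 361, 359 and 352 CPM, also apart, at 0.31 ± 0.12 (SE, adjusted p = 0.0978). Both were called without control untreated 1 (adjusted p = 0.0235 for Ccr2 and 0.0355 for Ms4a6c) and without control untreated 2 (0.0108 and 0.0279), though neither library is in the groups compared. The 6 SCFA libraries fitted alone also gave calls (0.0179 and 0.0231), as did limma-voom (0.0109 and 0.0217). Ms4a4c, Mpeg1, Klf4 and Cx3cr1 overlapped between genotypes and had log2 fold changes of 0.26, 0.04, 0.16 and 0.54 (adjusted p = 0.413, 0.884, 0.737 and 0.272). Cx3cr1 was called at 1.08 (adjusted p = 0.0220) without control SCFA 2, whose 13.2 CPM lay above the 4.75 and 6.46 CPM of the other controls and which is 1 of the 4 libraries with 269 counts.

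Lists of genes related to these markers are given next for genotype under SCFA, where 17.4% of all genes tested were called. The lists of fibronectin and factor XIII partners and of CD14 and TLR4 partners, with 7 genes tested each, are too short to set apart from this share. In the list of other classical monocyte genes 8 rose and 0 fell of 14, at a median of 0.59. Lyz2, the lysozyme of myeloid cells, rose by 0.68 (adjusted p = 2.9e-05), Csf1r, the receptor of M-CSF, by 0.96 (adjusted p = 0.00125) and the lysosomal glycoprotein gene Cd68 by 0.74 (adjusted p = 0.00143). Among the partners of cathepsin S 7 rose and 0 fell of 9 under SCFA. Cd74, the invariant chain that cathepsin S trims, rose by 0.91 (adjusted p = 0.00119) and Cst3, the cathepsin inhibitor cystatin C, by 0.74 (adjusted p = 0.00152). Between genotypes without SCFA, where Ctss also rose, the same list gave 2 rose and 3 fell of 9, at a median of -0.14. Of the integrins and other partners of fibronectin and factor XIII 2 rose and 0 fell of 7, namely Itgb3 at 0.58 (adjusted p = 0.00794) and Itga5, a chain of the main fibronectin receptor, at 1.11 (adjusted p = 0.0104); F13b, the carrier chain of factor XIII, had 0 counts in all 12 libraries. Among the partners of CD14 and TLR4 1 rose and 1 fell of 7, with the adaptor gene Myd88 at 0.69 (adjusted p = 0.00180) and Cd180, a receptor related to TLR4 that B cells also carry, at -1.27 (adjusted p = 0.00385).

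Of the ligands of CCR2 and CX3CR1, 0 rose and 2 fell of 4 under SCFA. Ccl2, the main ligand of CCR2, had 36.9 ± 3.83 CPM in control SCFA and 16.0 ± 3.32 CPM in homozygous SCFA libraries and fell by 1.21 (adjusted p = 7.0e-04). Ccr2 itself did not pass. Of the transcription factors 4 rose and 0 fell of 12, with Cebpb at 1.11 (adjusted p = 0.00130) and Spi1, which encodes PU.1, at 0.88 (adjusted p = 0.00146). Non-classical genes gave 2 rose and 1 fell of 12 and the Ms4a cluster 3 rose and 1 fell of 10. Late neutrophil genes summed to 59534 to 64220.0 CPM in control and 61810.5 to 72666 CPM in homozygous SCFA libraries (5 rose and 0 fell of 10). Macrophage genes summed to 542 to 585 CPM in control and 701 to 717 CPM in homozygous SCFA libraries (3 rose and 0 fell of 8), and megakaryocyte genes, a cell type that also makes F13a1, summed to 649 to 734 and 984 to 1185 CPM (3 rose and 0 fell of 5). Neutrophil precursor genes summed to 1771 to 2169 and 2579.9 to 3482 CPM (4 rose and 0 fell of 5, at a median of 0.73). B lineage genes fell in 8 of 8, at a median of -3.39, and plasmacytoid dendritic cell genes in 5 of 6, at -2.48. Interferon response genes gave 2 rose and 7 fell of 10, with sums of 818 to 928 and 624 to 700.1 CPM. Eosinophil, basophil and mast cell genes gave 2 rose and 0 fell of 6, and erythroid genes 2 rose and 3 fell of 7. Conventional dendritic cell genes summed to 149 to 171 CPM in control and 89.0 to 97.0 CPM in homozygous SCFA libraries (0 rose and 2 fell of 7). Stromal genes gave 0 rose and 0 fell of 4. T and NK cell genes gave 1 rose and 1 fell of 7. The part of these lists in the differences of the 10 genes was not tested.

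**Figure D3:**
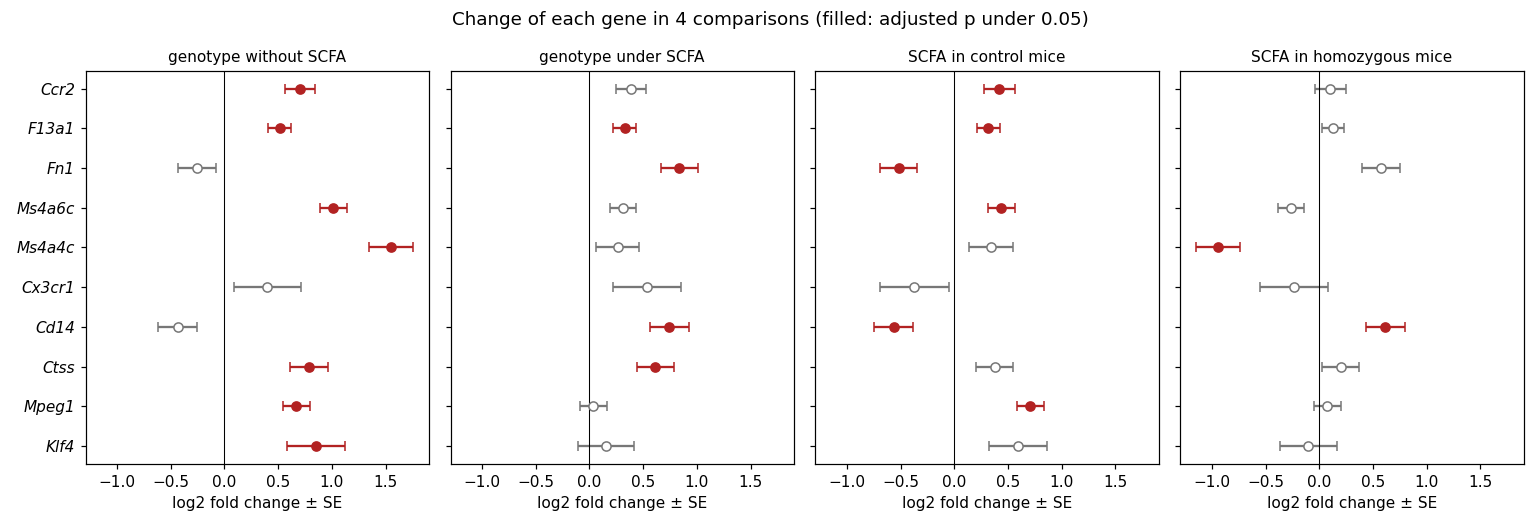
Log2 fold change of each of the 10 genes with its SE (x axis) in 4 comparisons; filled symbols mark adjusted p under 0.05. Genotype without SCFA has 7 filled symbols, all to the right of 0, and Fn1 and Cd14 lie to the left of 0 in control mice given SCFA (-0.52 and -0.56).

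In control mice, 4 of the 10 genes rose with SCFA and 2 fell. Of all genes tested 21.9% were called (8.89% rose and 13% fell). The 10 genes had a median of 0.36 against 0.04 over all genes tested. Mpeg1, Ms4a6c, Ccr2 and F13a1 rose, and Cd14 and Fn1 fell. Groups did not overlap for these 6 genes, against 38.5% of all genes tested. The control untreated libraries also enter the first comparison, with the values given there.

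Mpeg1 had 720.3, 821 and 844 CPM in control SCFA libraries, all above the 421 to 566 CPM of the untreated controls, at 0.71 ± 0.13 (SE, adjusted p = 0.00486). It was the 1 gene of the 10 whose call passed in each of the 12 fits without 1 library. Ms4a6c was at 0.44 ± 0.12 (SE, adjusted p = 0.0243), Ccr2 at 0.42 ± 0.14 (SE, adjusted p = 0.0465) and F13a1 at 0.32 ± 0.11 (SE, adjusted p = 0.0454). Cd14 fell from 47.1 ± 11.7 to 31.9 ± 0.628 CPM (mean ± SD, n = 3), at -0.56 ± 0.18 (SE, adjusted p = 0.0408), and Fn1 from 210.0 ± 56.8 to 147 ± 7.21 CPM, at -0.52 ± 0.17 (SE, adjusted p = 0.0456). For both, the spread among untreated controls was wider than among SCFA controls.

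Without control untreated 2, the log2 fold change was 0.29 for Ms4a6c (adjusted p = 0.115), 0.23 for Ccr2 (0.204), 0.23 for F13a1 (0.186), -0.39 for Cd14 (0.178) and -0.33 for Fn1 (0.194). These were all smaller in size than with all libraries, and only Mpeg1 of the 10 was called, as also without control untreated 3 or control SCFA 3. Of the 12 fits without 1 library, the call was lost in 11 for Ccr2 (all but control untreated 1), 10 for F13a1 (all but homozygous SCFA 1 and 2), 9 for Fn1 (all but control untreated 1, homozygous untreated 3 and homozygous SCFA 1), 8 for Cd14 (all but control untreated 1, homozygous untreated 2 and 3 and homozygous SCFA 1) and 5 for Ms4a6c (control untreated 2 and 3, homozygous untreated 3, control SCFA 2 and 3). In a fit of the 6 control libraries alone 1 of the 10 genes, Mpeg1, passed. The calls of Ms4a6c, Ccr2 and F13a1 were also lost without the filter on low counts (adjusted p = 0.0640, 0.0781 and 0.263), that of Ccr2 with RLE factors (0.0515) and that of F13a1 with limma-voom (0.0548). Ctss, Klf4 and Ms4a4c had log2 fold changes of 0.38, 0.59 and 0.34 (adjusted p = 0.135, 0.125 and 0.238), and without control untreated 1 they were 0.63, 0.91 and 0.63 (adjusted p = 0.00173, 0.0136 and 0.00823). Without control untreated 2 they were 0.19, 0.34 and 0.12 (adjusted p = 0.498, 0.450 and 0.736), and limma-voom called all 3, at 0.50, 0.71 and 0.45 (adjusted p = 0.00750, 0.0371 and 0.0313). Cx3cr1 was at -0.37 ± 0.32 (SE, adjusted p = 0.427) and at -0.89 (adjusted p = 0.0497) without control SCFA 2.

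Of the other classical monocyte genes 4 rose and 1 fell of 14 in control mice given SCFA. Chil3, a secreted chitinase-like protein of monocytes and neutrophils, had 3488 ± 954 CPM untreated and 5413 ± 446 CPM under SCFA and rose by 0.63 (adjusted p = 0.0146) on the log2 scale. The gene that fell was Csf1r, at -0.48 (adjusted p = 0.0469). Tlr4 rose by 0.84 (adjusted p = 0.00769) while its adaptor gene Myd88 was at -0.53 (adjusted p = 0.0111), in a list of CD14 and TLR4 partners where 2 rose and 2 fell of 7. Ccl2 rose by 1.23 (adjusted p = 0.00290), the 1 call among 4 ligands tested. Cathepsin S partners gave 1 rose and 3 fell of 9. Of the transcription factors 2 rose and 4 fell of 12. Egr1 rose from 86.4 ± 1.21 to 148 ± 15.6 CPM and Zeb2 from 183 ± 14.4 to 286 ± 18.4 CPM. Spi1 was among the falls, at -0.79 (adjusted p = 0.00613). Neutrophil precursor genes gave 0 rose and 3 fell of 5, summing to 2740.3 to 3945 CPM untreated and 1771 to 2169 CPM under SCFA. Megakaryocyte genes summed to 457 to 534 CPM untreated and 649 to 734 CPM under SCFA (3 rose and 1 fell of 5), beside the rise of F13a1. Macrophage genes summed to 394 to 428 and 542 to 585 CPM (4 rose and 0 fell of 8). Late neutrophil genes gave 4 rose and 3 fell of 10, with sums of 36772 to 55849 and 59534 to 64220.0 CPM. Erythroid genes summed to 7629.7 to 7923 and 3983 to 4543 CPM (0 rose and 3 fell of 7), and eosinophil, basophil and mast cell genes gave 1 rose and 3 fell of 6. B lineage genes gave 2 rose and 3 fell of 8, and interferon response genes 2 rose and 4 fell of 10. Conventional dendritic cell genes gave 0 rose and 0 fell of 7. Stromal genes, some of which also make fibronectin-rich matrix, gave 0 rose and 2 fell of 4 at a median of -1.79. Their sum was 35.9 CPM in control untreated 3 and 3.25 and 7.02 CPM in control untreated 1 and 2. T and NK cell genes gave 0 rose and 1 fell of 7. The part of these lists was not tested.

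Within homozygous mice Ms4a4c fell and Cd14 rose with SCFA. Of the 10, 1 rose and 1 fell, where 9.58% of all genes tested were called (3.96% rose and 5.61% fell), at a median of 0.09 against -0.0020 over all genes. Groups did not overlap for 5 of them, against 30.1% of all genes tested. Ms4a4c fell by 1.92-fold, from the 443 to 548 CPM of the untreated libraries to 298, 234 and 241 CPM in homozygous SCFA libraries 1, 2 and 3, at -0.94 ± 0.20 (SE, adjusted p = 0.00997). Interferon response genes summed to 624 to 700.1 CPM in these libraries, lower than the 2443 to 2621 CPM of the untreated ones, and 0 rose and 10 fell of 10; whether this bears on Ms4a4c was not tested. Cd14 rose at 0.62 ± 0.18 (SE, adjusted p = 0.0473), every SCFA library lying above every untreated one. Fn1 was at 0.57 ± 0.17 (SE, adjusted p = 0.0505), which did not pass, and its groups did not overlap.

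The call of Ms4a4c was lost without homozygous untreated 1, homozygous SCFA 2 or homozygous SCFA 3 (adjusted p = 0.0594, 0.0724 and 0.0677). That of Cd14 was lost in 8 of 12 fits, all but those without control untreated 1 or 2, homozygous untreated 3 or homozygous SCFA 1 (adjusted p up to 0.170), with the log2 fold change between 0.51 and 0.74 over the 12 fits. Fn1 was called with RLE factors (adjusted p = 0.0479), without the filter on low counts (0.00464), with the homozygous libraries fitted alone (0.0125), with DESeq2 (0.0123) and with limma-voom (0.00199). It was also called without control untreated 1 (adjusted p = 0.0104), control untreated 2 (0.0131) or homozygous SCFA 1 (0.0385), and adjusted p reached 0.182 without homozygous SCFA 3. Ms4a6c and Ctss stood apart between the groups as well, at -0.26 ± 0.12 (SE, adjusted p = 0.206) and 0.20 ± 0.17 (SE, adjusted p = 0.531), and neither passed. Ccr2, F13a1, Mpeg1, Klf4 and Cx3cr1 overlapped, with log2 fold changes between -0.24 for Cx3cr1 and 0.13 for F13a1.

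In the related lists, 3 rose and 2 fell of 14 of classical monocyte genes: Ly6c2 was at -0.65 (adjusted p = 0.00307) and Plac8 at -0.73 (adjusted p = 0.00536), while Cd68 rose by 0.65 (adjusted p = 0.00536). Of the monocyte transcription factors 5 rose and 0 fell of 12, with Egr1 at 2.45 (adjusted p = 1.0e-08) and Egr2 at 2.64 (adjusted p = 1.2e-05). Among the cathepsin S partners 4 rose and 0 fell of 9, with Cd74 at 1.08 (adjusted p = 3.6e-04) and the protease gene Lgmn at 0.60 (adjusted p = 0.00397). Macrophage genes summed to 475 to 557 CPM untreated and 701 to 717 CPM under SCFA (3 rose and 1 fell of 8), and megakaryocyte genes to 477 to 595 and 984 to 1185 CPM (4 rose and 0 fell of 5). B lineage genes fell in 8 of 8, plasmacytoid dendritic cell genes in 5 of 6 and erythroid genes in 6 of 7, where 1 rose. Conventional dendritic cell genes gave 1 rose and 1 fell of 7, and stromal genes 0 rose and 0 fell of 4. T and NK cell genes gave 0 rose and 1 fell of 7. The part of these lists was not tested.

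Whether the genotype difference itself depended on SCFA was tested as an interaction in the same fit. Of the 10 genes, 2 had a larger (more positive) difference under SCFA and 3 a smaller one, where 25.1% of all genes tested were called (13.6% larger and 11.6% smaller). Cd14 and Fn1 were the 2, at 1.18 ± 0.26 (SE, adjusted p = 0.00635) and 1.09 ± 0.24 (SE, adjusted p = 0.00701). Ms4a4c, Ms4a6c and Mpeg1 were the 3, at -1.29 ± 0.29 (SE, adjusted p = 0.00699), -0.70 ± 0.18 (SE, adjusted p = 0.0117) and -0.63 ± 0.18 (SE, adjusted p = 0.0185). Ccr2, F13a1, Ctss, Klf4 and Cx3cr1 did not pass, with interaction estimates between -0.70 and 0.14. The calls of Cd14, Fn1, Ms4a4c and Ms4a6c passed in each of the 12 fits without 1 library. That of Mpeg1 was lost without homozygous untreated 3, control SCFA 3, homozygous SCFA 2 or homozygous SCFA 3 (adjusted p = 0.0642, 0.0540, 0.0555 and 0.0551), and Klf4 was called without control untreated 1 (0.0311). BE692007, which shares exon bases with Ms4a6c, was at -0.95 (adjusted p = 0.0347) in the same direction.

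**Figure D4:**
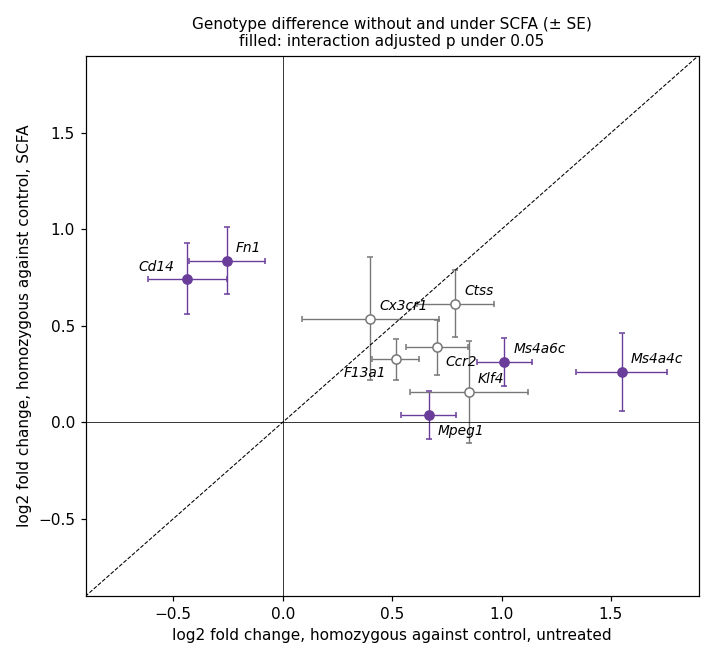
Log2 fold change of homozygous against control mice, untreated (x axis) and under SCFA (y axis), for each of the 10 genes with its SE; the dashed line marks equal differences, and filled symbols mark an interaction with adjusted p under 0.05. Cd14 and Fn1 lie above the line at negative x, and Ms4a4c, Ms4a6c and Mpeg1 lie below it.

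In related lists the monocyte transcription factors gave 8 rose and 0 fell of 12 for the interaction, among them Egr1 at 1.67 (adjusted p = 1.6e-05) and Spi1 at 1.25 (adjusted p = 0.00201). Cathepsin S partners gave 5 rose and 0 fell of 9, with Cd74 at 1.49 (adjusted p = 7.3e-04) and Ctsd at 1.46 (adjusted p = 0.00133), whereas Ctss itself was at -0.17 ± 0.25 (SE, adjusted p = 0.635). Csf1r was at 1.21 (adjusted p = 0.00324) and Ly6c2 at -0.82 (adjusted p = 0.00460), so that the list of classical monocyte genes held both directions (2 rose and 3 fell of 14). Ccl2 was at -1.43 (adjusted p = 0.00303). Among markers of other cells, interferon response genes gave 0 rose and 10 fell of 10 at a median of -1.94. B lineage genes gave 0 rose and 8 fell of 8 and plasmacytoid dendritic cell genes 0 rose and 4 fell of 6. Macrophage genes gave 3 rose and 1 fell of 8, and neutrophil precursor genes 3 rose and 1 fell of 5. Late neutrophil genes gave 4 rose and 1 fell of 10 and megakaryocyte genes 2 rose and 0 fell of 5. Erythroid genes gave 1 rose and 3 fell of 7, and T and NK cell genes 1 rose and 1 fell of 7. Conventional dendritic cell genes gave 0 rose and 0 fell of 7, and stromal genes 0 rose and 0 fell of 4. The part of these lists in the interaction of the 10 genes was not tested.

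Across the 12 libraries the 10 genes fell into patterns that were compared by Pearson's r of log2 CPM, given as a description since the libraries share their groups and scaling. Ccr2 went with F13a1 (r = 0.95) and Ctss (r = 0.95), and Ms4a6c with Ms4a4c (r = 0.91) and Ccr2 (r = 0.90). Fn1 and Cd14 went with each other (r = 0.93) and not with Ccr2 (r = -0.01 and -0.20). Cd14 and Ms4a4c had the lowest value of the 45 pairs (r = -0.45). Control untreated 2 had the highest Fn1 and Cd14 and the lowest Ccr2, Ctss, Ms4a4c, Ms4a6c, F13a1 and Klf4 of its group. Mpeg1, which went with Ccr2 at r = 0.79, was lowest in control untreated 1 instead (421 CPM, against 474 CPM in control untreated 2). These libraries are among the 12 that gave the correlations, so they are no separate support for the patterns.

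**Figure D5:**
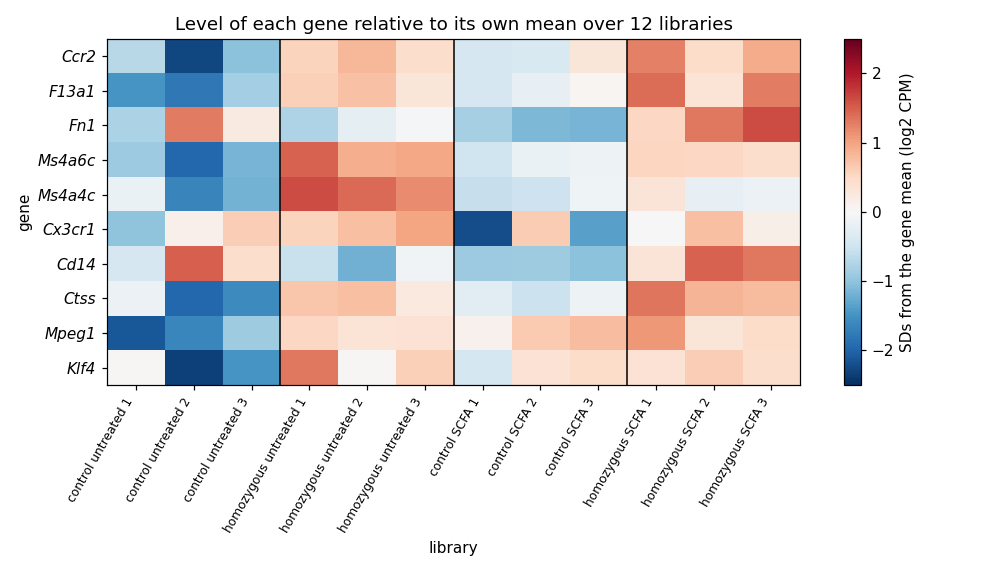
Level of each of the 10 genes (rows) in each of the 12 libraries (columns), in SDs of log2 CPM from the mean of that gene over all libraries (red above, blue below). The rows of Fn1 and Cd14 share 1 arrangement (r = 0.93), unlike that of Ccr2, F13a1 and Ctss.

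Of 9495 other named genes averaging 5 CPM or more, the 5 most like the mean of the 10 standardised levels over the 12 libraries were Stfa2 (r = 0.97), Ptpro (r = 0.97), Myof (r = 0.96), Fcgr4 (r = 0.96) and Cstdc5 (r = 0.96). Stfa2 and Cstdc5 belong to the stefins, cysteine protease inhibitors with close copies that may share reads. Ptpro encodes a receptor tyrosine phosphatase, Myof the membrane protein myoferlin and Fcgr4 an Fc receptor of monocytes and neutrophils. The mean follows the genes that move together, so Cd14 and Fn1 are least like it.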

How the data were processed

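The authors deposited 1 table of unnormalized whole-number counts, with gene symbols as rows and the 12 libraries as columns. Per the submitters' processing notes STAR, featureCounts and the mm10 build were used; for their versions, the annotation and strandedness nothing is given in the sources used here. Libraries were grouped by their titles. One edgeR (4.0.16, R 4.3.3) quasi-likelihood fit with a mean for each of 4 groups covered all 12 libraries, after filterByExpr by group and with TMM scaling. Benjamini-Hochberg adjustment ran over the 15674 genes tested. The procedure was also run on simulated data. Those held no outlying library such as control untreated 2, so they do not show how well it performs here. Levels are CPM of the total count scaled by TMM factors; correlations used log2 CPM with a prior count of 2. Exon lengths and coordinates came from GENCODE M21 (mm10). No 2 replicates had counts that matched within sampling noise (chi-square over its degrees of freedom was 11.6 to 84.8), and each library was used as 1 sample.

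The members, lists and tests were chosen with earlier results of these data known. All 10 members are named, and of each related list at most the 3 genes with the smallest p in a comparison. The values of 1 listed gene, which stays in the counts, are not reported here. Csf1r in control mice given SCFA and F13b were named after their values were seen, and Stat3, Kit, Cd34 and BE692007 serve as checks. The alternatives were DESeq2 1.42.0, limma-voom (limma 3.58.1) with quality weights, RLE in place of TMM, scaling without B lineage genes, unfiltered counts, a block for the replicate number, a fit of only the 2 groups compared, and fits that each leave out 1 library. Tables and figures were made with Python 3.11.15 and matplotlib 3.10.9.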

Additional observations from a re-analysis of the deposited data

Results flagged for a closer look

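For 5 of the 10 genes the difference between homozygous and control mice differed between untreated and SCFA libraries by the test of that difference itself (interaction term, edgeR quasi-likelihood test, 3 libraries per group), against 25.1% of all genes tested. The interaction was 1.18 ± 0.26 (SE, adjusted p = 0.00635) for Cd14 on the log2 scale, whose genotype difference was -0.44 without and 0.74 under SCFA. It was 1.09 ± 0.24 (SE, adjusted p = 0.00701) for Fn1, from -0.26 to 0.84. For Ms4a4c it was -1.29 ± 0.29 (SE, adjusted p = 0.00699), from 1.55 to 0.26. For Ms4a6c it was -0.70 ± 0.18 (SE, adjusted p = 0.0117), from 1.01 to 0.31. For Mpeg1 it was -0.63 ± 0.18 (SE, adjusted p = 0.0185), from 0.67 to 0.04. Untreated and SCFA libraries also differ in their label date, which cannot be told apart from the treatment.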

How the results depend on the processing

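The count of the 10 genes called was 7 for genotype without SCFA and 5 to 9 over the 12 fits without 1 library, 4 and 2 to 6 for genotype under SCFA, 6 and 1 to 8 for SCFA in control mice, 2 and 0 to 3 for SCFA in homozygous mice, and 5 and 4 to 6 for the interaction. For SCFA in control mice it was also 3 with no filter on low counts and 1 in a fit of only the libraries compared. No called gene changed direction under any alternative. The direction turned only in values not called. Between genotypes under SCFA, Mpeg1 at 0.04 became -0.0085 with limma-voom and ranged from -0.063 to 0.11 over the fits without 1 library. With SCFA in homozygous mice Mpeg1 ranged from -0.043 to 0.14 and Klf4 from -0.24 to 0.068. The interaction ranged from -0.16 to 0.65 for Cx3cr1 and from -0.41 to 0.027 for Ctss. The cause was not tested. Counts of all genes called ranged from 770 to 4334 for genotype without SCFA (2323 with all), 1431 to 3282 under SCFA (2722), 613 to 5090 for SCFA in control mice (3433), 748 to 1998 in homozygous mice (1501) and 2455 to 5381 for the interaction (3938) without 1 library. With limma-voom they were 3922, 4762 and 2988 for genotype without SCFA, genotype under SCFA and SCFA in homozygous mice, and with DESeq2 2310 for the last. In fits of only the groups compared they were 914 for genotype without SCFA and 2035 for SCFA in control mice.

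Replicate numbers are shared between groups, but deviations of same-numbered libraries from their group means correlated at -0.114 to 0.108 over 18 pairs, so the numbers were not taken as pairs. With the replicate block, the counts of the 10 genes called were 6, 3, 5, 2 and 5 in the same order of comparisons. The block ended the calls of Klf4 for genotype without SCFA (adjusted p = 0.0522), F13a1 for genotype under SCFA (0.0588) and for SCFA in control mice (0.0513), and Cd14 for SCFA in homozygous mice (0.0605), and it gave a call of Fn1 there (0.0430).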

Other observations

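The count of Cx3cr1, the receptor gene of patrolling monocytes, was 269 in 4 of the 12 libraries, 1 in each of the 4 groups. Counts of this gene ran from 100 to 300 over the libraries. Among 1056 genes whose counts all lay between 90 and 400, limits chosen after the repeat was seen, Cx3cr1 was the 1 gene with the same count in 4 libraries, and 11 genes had it in 3. Of the other 9 monocyte genes, Klf4 had the same count (186) in 2 libraries and the rest had no repeat. The origin of the repeat was not tested, and the row was used as deposited.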
